A study of Arabidopsis thaliana with 48 samples.

Results

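The 10 genes described here are markers of abscisic acid, drought and cold responses in Arabidopsis, measured in leaves and roots in spaceflight (FT) and in the ground control (GC). They were chosen by locus: *NCED3* (AT3G14440), *RD29A* (AT5G52310), *RD29B* (AT5G52300), *RAB18* (AT5G66400), *RD22* (AT5G25610), *COR15A* (AT2G42540), *COR47* (AT1G20440), *KIN1* (AT5G15960), *LTI30* (AT3G50970) and *HIS1-3* (AT2G18050). All 10 were found among the 33977 rows of each of the leaf and root tables. Seedlings of wild-type Col-0 and of the mutants *elp2-5* and *met1-7*, both in the Col-0 background, grew on plates for 11 days in constant light. FT plants grew in the Veggie hardware on the International Space Station. GC plants grew in the same hardware in a chamber at Kennedy Space Center that copied the station's environment after a delay, given as 48 h in the sample labels and as 24 h in the methods. *ELP2* encodes a subunit of the Elongator complex, a cofactor of RNA polymerase II, and *MET1* encodes the enzyme that maintains CG methylation. With 4 libraries for every combination of genotype, organ and environment, there were 12 groups and 48 libraries. By the study's methods a replicate joined plants from a pair of plates, except a *met1-7* FT replicate from a single plate, so p-values measure the spread between such pools. Each mutant was a single line.

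Abscisic acid (ABA) accumulates when water is short. NCED3 cleaves carotenoids in the committed step of its synthesis during drought. ABA bound by PYR/PYL receptors blocks the PP2C phosphatases, which frees SnRK2 kinases to activate bZIP factors that bind the ABRE motif in promoters. Cold and dehydration also act through CBF and DREB2 factors, which bind the CRT/DRE motif. The targets followed here include the dehydrins RAB18, COR47 and LTI30, which protect membranes and proteins of drying or freezing cells, the chloroplast protein COR15A, the small hydrophilic protein KIN1, the paired genes *RD29A* and *RD29B*, the BURP-domain protein RD22 and the drought-inducible linker histone HIS1-3.

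The promoters differ in which of those motifs they carry. Windows from 250 bases before to 50 bases after each RefSeq gene start (TAIR10.1) were searched on both strands for the ABRE core ACGTG and the CRT/DRE core CCGAC, with overlapping matches to a motif counted once. Among the promoters of 27443 protein-coding genes, 26.72% held the ABRE core and 15.05% held the CRT/DRE core. Of the 10 markers, 7 held an ABRE core and 4 held a CRT/DRE core, while *NCED3* and *COR47* held neither in this window. *RD29A* held 4 CRT/DRE cores and no ABRE core, and its neighbour *RD29B* held 4 ABRE cores and 1 CRT/DRE core. The last *RD29A* core starts within the gene, at base 5, and so is not in the stretch shown. The 250 bases before the start are shown for this neighbouring pair and for *COR15A*, which changed in both mutants. They are also shown for *HIS1-3*, the marker called in flight in roots. They lie at chr5:21240467-21240716 (plus strand), chr5:21236771-21237020 (plus strand), chr2:17712331-17712580 (minus strand) and chr2:7845673-7845922 (plus strand). Capitals mark the cores on either strand.
RD29A: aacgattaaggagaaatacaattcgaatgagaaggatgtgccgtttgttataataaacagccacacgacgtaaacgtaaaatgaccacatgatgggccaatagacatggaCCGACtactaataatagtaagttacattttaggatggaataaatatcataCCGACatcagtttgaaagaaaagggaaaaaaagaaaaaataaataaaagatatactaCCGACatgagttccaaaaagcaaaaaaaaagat
RD29B: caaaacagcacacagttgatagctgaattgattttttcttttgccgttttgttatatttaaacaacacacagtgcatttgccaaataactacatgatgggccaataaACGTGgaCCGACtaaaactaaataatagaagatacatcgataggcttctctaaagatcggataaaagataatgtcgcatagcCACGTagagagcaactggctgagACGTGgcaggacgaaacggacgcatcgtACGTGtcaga
COR15A: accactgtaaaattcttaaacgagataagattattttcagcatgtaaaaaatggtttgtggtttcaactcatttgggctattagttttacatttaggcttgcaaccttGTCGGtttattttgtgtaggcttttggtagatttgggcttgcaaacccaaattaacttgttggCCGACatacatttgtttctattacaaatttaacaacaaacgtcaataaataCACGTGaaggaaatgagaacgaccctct
HIS1-3: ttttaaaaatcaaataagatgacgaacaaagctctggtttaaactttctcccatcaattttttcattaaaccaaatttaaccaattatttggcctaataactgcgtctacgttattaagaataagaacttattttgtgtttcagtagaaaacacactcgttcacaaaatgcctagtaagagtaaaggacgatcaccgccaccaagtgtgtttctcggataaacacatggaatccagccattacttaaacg
The *HIS1-3* stretch has no capitals because both of its ABRE cores start within the gene, at bases 2 and 31 from the start. *RAB18* held 3 ABRE cores, *LTI30* held 3 CRT/DRE cores and 1 ABRE core, and *RD22* and *KIN1* held 1 ABRE core each. A match to these letters is a description of the window and not evidence of binding.

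Of the markers, 6 sit beside a gene of related sequence. No gene lies between *RD29A* and *RD29B* (1185 bases apart), *COR15A* and *COR15B* (7 bases), *KIN1* and *KIN2* (892 bases), *COR47* and *ERD10* (1029 bases) or *LTI30* and *XERO1* (313 bases), and each pair is on the same strand. The closest in sequence were *KIN1* and *KIN2*, whose transcripts matched at 91.7% of 505 aligned bases. *COR15A* and *COR15B* matched at 80.1% of 608 bases. None reached 95% identity over 80% of the shorter transcript, but reads from the shared stretches could still be assigned to the wrong copy. *RAB18* overlaps AT5G66410 at its start, on the opposite strand. The libraries were strand-specific, though the strand setting of the counting is not given in the sources used here.

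Values are FPKM as deposited, a level scaled to transcript length and to the size of the library. The tables hold no counts of reads, and the depth of the libraries is therefore unknown. *ELP2* was at 3.24 to 3.99 FPKM in *elp2-5* leaves against 7.38 to 9.13 in Col-0, and at 4.23 to 5.78 against 10.66 to 14.75 in roots. *MET1* in *met1-7* overlapped Col-0 in both organs, so its RNA level did not separate the genotypes. One library stood apart in a way that touches these genes. In Col-0 GC leaf replicate 4, a list of 11 seed genes summed to 1637 FPKM, with 9 of them above 1 FPKM and *EM1* and *EM6* at 0, while the other 23 leaf libraries summed to between 0 and 3.40. That library also had the highest *RAB18* (3.85) and *RD29B* (0.63) of its group, so results that rest on it are given with and without it. In roots the highest seed sum, 14.37 against a median of 1.74, was in *elp2-5* GC replicate 3, again the highest of its group for *RAB18* and *RD29B*. Whether seed RNA contributed to the levels of the marker genes was not tested.

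In Col-0 leaves, *RD22* was the most abundant marker, with a median of 143.7 FPKM over the 8 libraries. *COR47* followed at 81.4, then *COR15A* at 14.4 and *RD29A* at 8.51, and none of these neighbours in the order overlapped. From *HIS1-3* (4.00) down through *LTI30*, *RAB18*, *KIN1*, *NCED3* and *RD29B* (0.14), each gene overlapped the next. In Col-0 roots the order changed: *COR47* (354.8) and *LTI30* (133.9) led without overlap, and the other 8 formed a run of overlapping neighbours from *HIS1-3* (19.5) to *RD29B* (0.41). Leaf and root tables were deposited separately, so the organs were not tested against each other. Side by side, the Col-0 mean of *LTI30* was 95 times higher in roots and that of *KIN1* was 25.0 times higher. *RD22* was 28.3 times higher in leaves and *COR15A* was 4.62 times higher in leaves. *RD29A* overlapped between the organs, at 5.84 to 9.54 FPKM in leaves and 6.71 to 15.33 in roots.

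**Figure D1:**
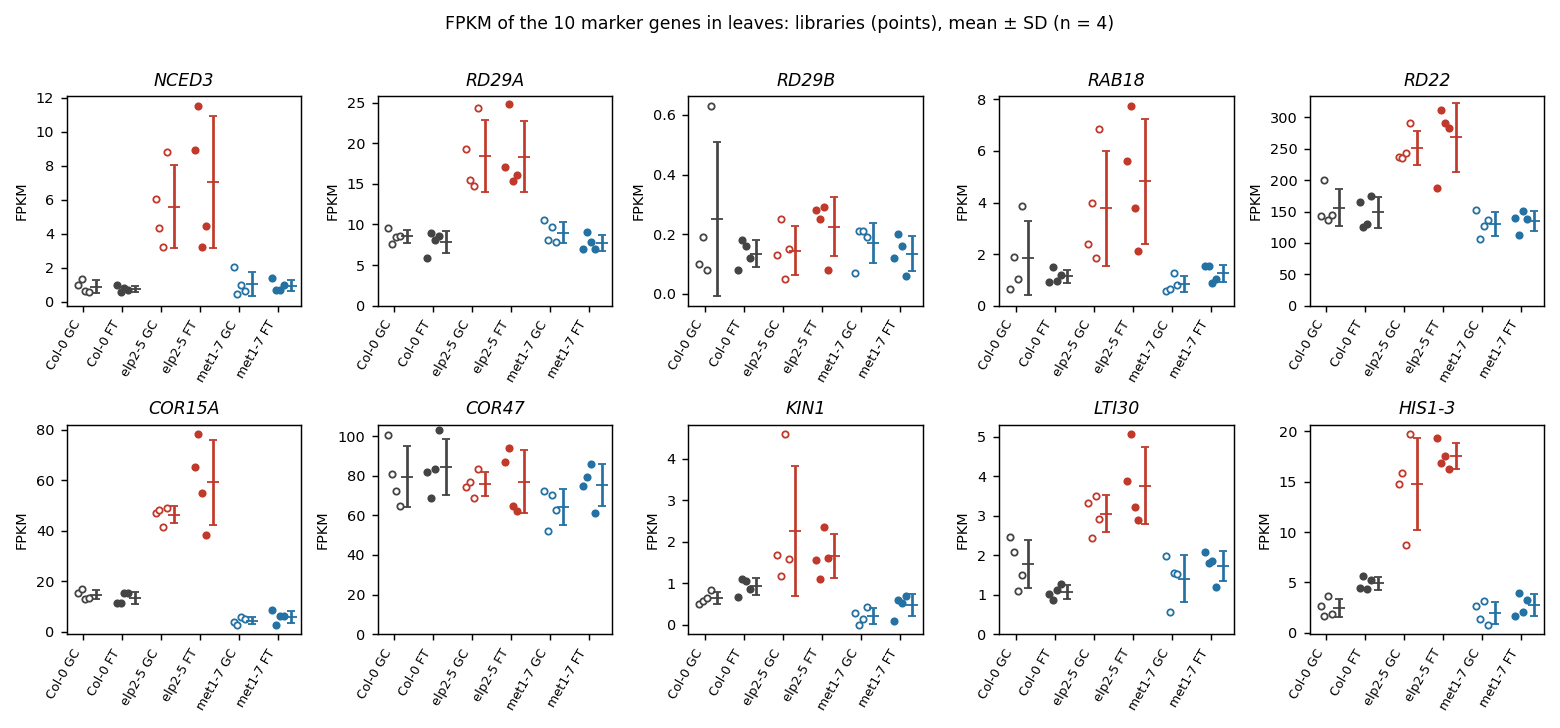
FPKM (vertical axis) of each of the 10 genes in the 24 leaf libraries, by genotype and environment. Open points are GC libraries, filled points FT libraries, and bars the mean ± SD of 4. The *elp2-5* libraries of *HIS1-3* (8.71 to 19.71) sit above all others, and the *met1-7* libraries of *COR15A* sit below Col-0.

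Between FT and GC within a genotype, only *HIS1-3* in roots passed the test given below, and it did so in every genotype. Its calls were close to the threshold, and *LTI30* in *elp2-5* roots fell just short of it. *HIS1-3* encodes a linker histone variant that is normally scarce and is induced by drought and ABA. In Col-0 roots it was at 16.85, 13.37, 19.96 and 11.59 FPKM in the 4 GC libraries and at 18.97, 47.39, 27.35 and 36.11 in FT. The highest GC library reached above the lowest FT library, so these groups overlapped slightly. In *elp2-5* roots the GC libraries were at 5.42, 5.24, 5.45 and 2.96 and the FT libraries at 12.1, 8.34, 12.45 and 10.19. In *met1-7* roots they were at 10.79, 8.25, 13.6 and 17.05 in GC and at 30.47, 33.12, 23.52 and 21.11 in FT. In both mutants every FT library was above every GC library. The mean rose 2.1-fold in Col-0, 2.26-fold in *elp2-5* and 2.18-fold in *met1-7*.

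Changes were tested as log2(FPKM + 0.5) with limma on all expressed genes of an organ, with Benjamini-Hochberg adjustment, and a gene passed at an adjusted p under 0.05. The log2 fold changes of *HIS1-3* in roots were 1.00 (SE 0.26, adjusted p = 0.0425) in Col-0, 1.12 (SE 0.26, adjusted p = 0.0189) in *elp2-5* and 1.12 (SE 0.26, adjusted p = 0.0417) in *met1-7*. Among all 21000 genes tested in roots, 2.09% rose and 0.81% fell in Col-0, 3.57% rose and 3.21% fell in *elp2-5*, and 0.852% rose and 0.333% fell in *met1-7*. After median-ratio scaling the split of all root genes turned, with 0.781% rising and 1.52% falling in Col-0, 2.77% and 4.07% in *elp2-5*, and 0.567% and 1.11% in *met1-7*. The *HIS1-3* calls were close to the threshold. In Col-0 the call was lost with median-ratio scaling (0.95, adjusted p = 0.0583), with quantile normalization (0.97, adjusted p = 0.0578), without the filter (adjusted p = 0.0521) and with a replicate block (adjusted p = 0.0606). The block also ended the call in *met1-7* (adjusted p = 0.0644). Fitted with the 8 libraries of each comparison alone, the adjusted p were 0.138, 0.062 and 0.0904, and none passed.

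The call in Col-0 was lost without FT replicate 2, 3 or 4 or GC replicate 1, 2 or 4, with log2 fold changes from 0.79 to 1.05. In *elp2-5* it was lost without FT replicate 1, 3 or 4 (1.04 to 1.14), at adjusted p of 0.0533 to 0.0552. In *met1-7* it was lost without FT replicate 1 or 2 or any of the GC replicates (0.94 to 1.28). The flight comparisons of the 3 genotypes contrast separate libraries, but they share one estimate of the spread and the same flight and ground run. The Col-0 call was also lost without *elp2-5* FT replicate 1 or 4 or *met1-7* GC replicate 3. The *met1-7* call was also lost without Col-0 FT replicate 3 or *elp2-5* FT replicate 3 or 4. In these fits the adjusted p was at most 0.0558. The interaction contrasts, which compare each mutant's flight response with that of Col-0, were 0.12 (SE 0.37, adjusted p = 0.941) for *elp2-5* and 0.12 (SE 0.37, adjusted p = 0.967) for *met1-7*. Neither passed, which does not show that the responses were equal.

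An average of the flight effect over the 3 genotypes, added after the values were seen, gave *HIS1-3* a log2 change of 1.08 in roots (SE 0.15, adjusted p = 0.000141). It stayed between 1.01 and 1.15 with each library left out in turn, at adjusted p of at most 0.000386. In leaves the same average was 0.54 (SE 0.17, adjusted p = 0.0215), and it passed in each of the 24 fits without a library. By this average, 14.1% of root genes rose and 6.84% fell, and 21.5% of leaf genes rose and 7.72% fell. *RAB18*, a dehydrin widely used as an ABA marker, also rose in roots by the average, with a log2 change of 1.21 (SE 0.40, adjusted p = 0.0371), but this call held in only 10 of 24 fits without a library. No other marker passed in either organ.

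**Figure D2:**
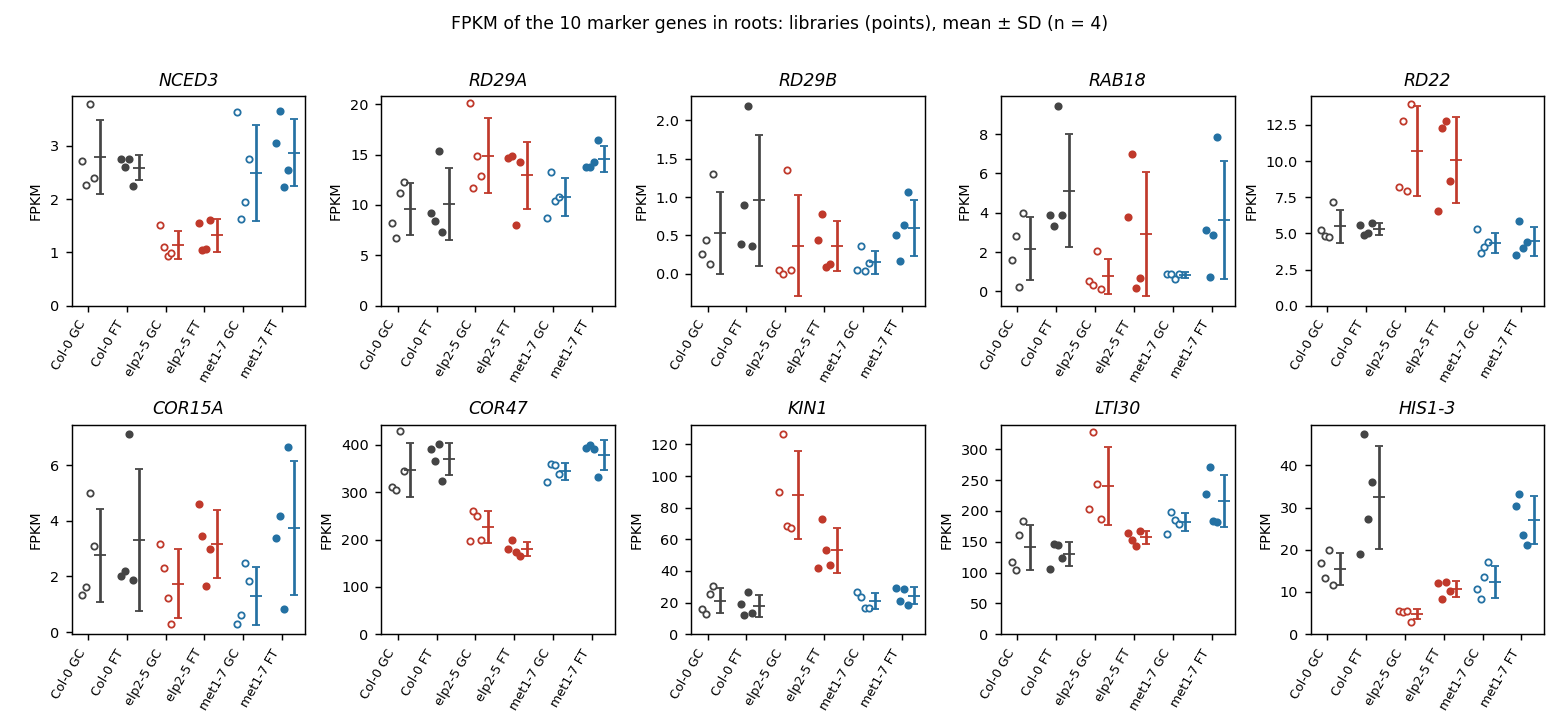
FPKM (vertical axis) of each of the 10 genes in the 24 root libraries, drawn as for leaves. FT points of *HIS1-3* lie above GC points in each genotype except for overlap in Col-0, and *RD29B*, *RAB18* and *COR15A* scatter widely within groups.

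The root levels of *RAB18*, *RD29B* and *COR15A* varied several-fold within groups. *RAB18* was at 1.62, 2.82, 0.24 and 3.98 FPKM in Col-0 GC and at 3.88, 3.31, 9.43 and 3.89 in FT. In *met1-7* it was at 0.91, 0.91, 0.63 and 0.9 in GC and at 3.12, 0.74, 2.88 and 7.85 in FT. Col-0 FT replicate 3 was the highest library of its group for all 3 genes, with *RD29B* at 2.19 and *COR15A* at 7.12, and also for *RD29A* at 15.33. The FT over GC difference of *RAB18* did not pass in any genotype, with log2 fold changes of 1.24, 1.06 and 1.33 and an SE of 0.69 for each. *COR15A* in *met1-7* roots had 1.21 (SE 0.57, adjusted p = 0.267). The summed level of 5 leaf marker genes in roots was highest in *met1-7* FT replicate 4 (803.7 FPKM), the library with *RAB18* at 7.85. It was 700.9 in Col-0 FT replicate 3, the highest of its group. Col-0 GC replicate 3, at 725.3, had the lowest *RAB18* and the highest *COR15A* of its group. The sum overlapped between FT and GC in each genotype, and its part in these values was not tested.

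Flight differences of other markers in roots did not pass. *KIN1* in *elp2-5* had a mean of 88.0 FPKM in GC and 53.0 in FT, with overlapping groups, a log2 fold change of −0.71 (SE 0.29, adjusted p = 0.132). *LTI30* in *elp2-5* was at 202.65, 328.78, 243.48 and 186.91 FPKM in GC and lower in every FT library, at 164.28, 152.96, 143.52 and 167.54. Its log2 fold change was −0.58 (SE 0.18, adjusted p = 0.0501), and with median-ratio scaling the adjusted p was 0.0481. *COR47* in *elp2-5* roots had −0.32 (SE 0.11, adjusted p = 0.0677). *RD29A* in *met1-7* roots was higher in every FT library (13.76 to 16.44) than in GC (8.72 to 13.3), with a log2 fold change of 0.42 (SE 0.23, adjusted p = 0.331).

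In leaves, 0 of the 27 tests of a marker between FT and GC passed with limma, and 2 had an unadjusted p under 0.05. *HIS1-3* in Col-0 came nearest. Its libraries were at 2.66, 1.71, 3.69 and 1.86 FPKM in GC and at 4.48, 5.61, 4.3 and 5.27 in FT, with no overlap. The log2 fold change was 0.90 (SE 0.29, adjusted p = 0.0505), and it passed without Col-0 GC replicate 3 (1.08, adjusted p = 0.0345). Without the GC replicate 4 that held seed transcripts it was 0.81 (adjusted p = 0.102). The summed level of 5 root marker genes was also higher in those leaf libraries in FT, 281.4 to 378.7 FPKM against 191.1 to 256.3 in GC, and *PYK10*, the root marker that passed the filter in leaves, rose by 0.62. In *elp2-5* and *met1-7* leaves that sum overlapped between FT and GC. Its part in the leaf values of *HIS1-3*, the average over genotypes included, was not tested. *LTI30* in Col-0 had −0.51 (SE 0.23, adjusted p = 0.144). Among all 19877 leaf genes tested, 8.71% rose and 3.15% fell in Col-0, 0.644% rose and 0.156% fell in *elp2-5*, and 9.53% rose and 3.38% fell in *met1-7*. With median-ratio scaling these became 5.75% and 6.76% in Col-0, 0.543% and 0.387% in *elp2-5*, and 4.44% and 6.19% in *met1-7*.

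No interaction contrast of a marker passed in either organ by limma. Of the 18 tests in leaves 2 had an unadjusted p under 0.05, and of the 20 in roots 1 did. Among all genes, 0.0151% passed in leaves for *elp2-5*, and 0% passed in leaves for *met1-7* and in roots for either mutant.

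**Figure D3:**
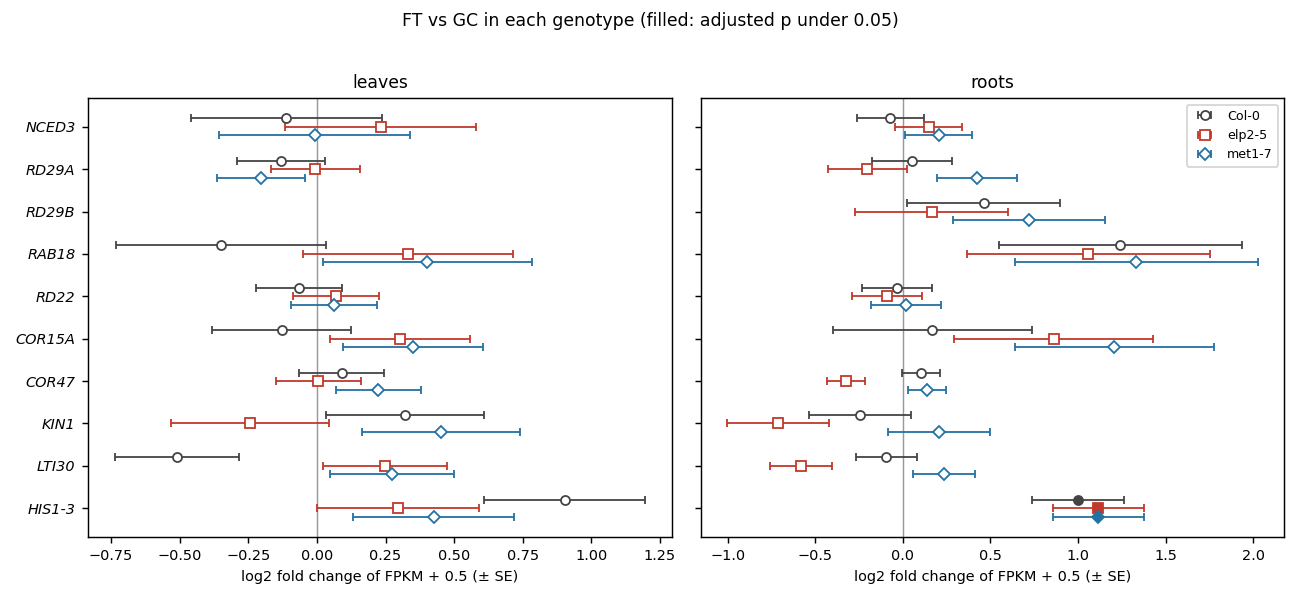
Log2 fold change of FT over GC (horizontal axis, ± SE) of each gene in leaves and roots, by genotype. Filled symbols passed at an adjusted p under 0.05; they are those of *HIS1-3* in roots, at 1.00, 1.12 and 1.12.

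Differences of several markers between *elp2-5* and Col-0 were larger than those between FT and GC, in both environments. In leaves, 14 of the 18 tests passed, and all 14 were rises. Among all leaf genes, 37.6% rose in GC and 35.5% in FT. *NCED3*, the ABA synthesis gene, was at 1, 1.35, 0.63 and 0.56 FPKM in Col-0 GC and at 6.06, 4.3, 3.21 and 8.79 in *elp2-5* GC. In FT it was at 1, 0.57, 0.8 and 0.67 in Col-0 and at 8.92, 11.51, 3.21 and 4.42 in *elp2-5*. Every *elp2-5* library was above every Col-0 library. The log2 fold change was 2.09 (SE 0.35, adjusted p = 4.94e-05) in GC and 2.43 (SE 0.35, adjusted p = 9.59e-06) in FT. The ratios of the mean FPKM were 6.32 and 9.23.

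*HIS1-3* in leaves was at 14.73, 15.86, 8.71 and 19.71 FPKM in *elp2-5* GC and at 19.38, 16.9, 17.59 and 16.31 in *elp2-5* FT. No Col-0 leaf library exceeded 5.61. The mean in *elp2-5* was 5.95 times higher in GC (log2 fold change 2.35, SE 0.29, adjusted p = 2.28e-06) and 3.57 times higher in FT (1.74, SE 0.29, adjusted p = 6.75e-05).

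*COR15A*, whose protein stabilises chloroplast membranes during freezing, rose without overlap as well. Col-0 leaves held 15.24, 16.96, 12.89 and 13.53 FPKM in GC and 11.43, 11.46, 15.4 and 15.44 in FT. In *elp2-5* the values were 46.85, 48.18, 41.52 and 48.89 in GC and 65.21, 78.18, 54.97 and 38.11 in FT. The log2 fold changes were 1.63 (SE 0.25, adjusted p = 2.86e-05) and 2.06 (SE 0.25, adjusted p = 2.15e-06).

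*RD29A* and *RD22* rose in *elp2-5* leaves by smaller factors. *RD29A* went from 5.84 to 9.54 FPKM over the Col-0 libraries to 14.73 to 24.81 over those of *elp2-5*, with log2 fold changes of 1.04 in GC and 1.17 in FT. *RD22*, the most abundant marker in leaves, went from a highest value of 200.56 in Col-0 GC to a lowest of 234.8 in *elp2-5* GC, and its log2 fold changes were 0.70 and 0.83. The adjusted p of *RD29A* were 2.22e-05 and 6.44e-06, and those of *RD22* were 0.000964 and 0.000186.

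Among the dehydrins, *LTI30* in leaves rose by 0.67 in GC (SE 0.23, adjusted p = 0.018) and by 1.42 in FT (SE 0.23, adjusted p = 2.99e-05) on the log2 scale. The GC call was lost without Col-0 GC replicate 3 (0.51, adjusted p = 0.0785). *RAB18* rose in FT, from 0.93, 1.49, 0.96 and 1.19 FPKM in Col-0 to 5.6, 7.75, 3.79 and 2.13 in *elp2-5* (log2 fold change 1.58, SE 0.38, adjusted p = 0.00177). In GC its difference was 0.90 (SE 0.38, adjusted p = 0.0535). Without the Col-0 GC replicate 4 that held seed transcripts, the difference in GC was 1.26 (adjusted p = 0.00714). It also passed without *elp2-5* GC replicate 1 (1.04, adjusted p = 0.0455) or 3 (1.14, adjusted p = 0.0231). *COR47*, the third dehydrin, had −0.05 in GC and −0.14 in FT and did not pass.

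*KIN1* was low in leaves, from 0.5 to 1.11 FPKM in Col-0 and from 1.1 to 4.59 in *elp2-5*. It rose in GC (1.14, SE 0.29, adjusted p = 0.00233), and its difference in FT was 0.58 (SE 0.29, adjusted p = 0.1). Summed with *KIN2*, its neighbour, the FT value was 1.66 with an adjusted p of 5.06e-05, though *KIN2* was far more abundant in leaves (17.03 to 26.4 FPKM in Col-0 GC) and makes up most of that sum. Of the 24 leaf libraries, *KIN1* reached the filter level of 1 FPKM in 8 of *elp2-5*, 2 of Col-0 and 0 of *met1-7*, so it entered the leaf tests only through *elp2-5*, where it was high. Without *KIN1*, 13 of 16 leaf tests of *elp2-5* against Col-0 passed. *NCED3* reached 1 FPKM in 8 libraries of *elp2-5*, 3 of Col-0 and 3 of *met1-7*. *RD29B* stayed under 1 FPKM in every leaf library and was not in the fit; 0 of 9 exact permutation tests of its leaf groups had a p under 0.05, and the smallest was 0.171, where 4 against 4 can reach 0.0286.

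Many leaf genes differed between *elp2-5* and Col-0: 37.6% of all tested genes rose and 14.1% fell in GC, and 35.5% rose and 14.9% fell in FT. Over the 9 markers tested, *KIN1* included, the median marker had a log2 fold change of 1.04 in GC and 1.42 in FT, while the median of all genes was 0.14 and 0.12. The split of all genes depended on scaling. After median-ratio scaling, 22.7% rose and 23.1% fell in GC, and 23% rose and 23.8% fell in FT, with the median of all genes near 0. Of the 14 marker calls, 13 passed under that scaling, and *LTI30* in GC did not (0.55, adjusted p = 0.0568). In *elp2-5* leaves the summed level of 5 root marker genes was also higher, 394.7 to 573.4 FPKM in GC against 191.1 to 256.3 in Col-0 GC. Only *PYK10* of the 5, picked out here after its values were seen, passed the filter in leaves, and *COBL9*, *EXP7*, *PRP3* and *CASP1* were all under it. The summed level of 5 guard cell marker genes was lower, 79.3 to 104.8 against 147.8 to 174.2 in Col-0 GC, though *KAT1* of that list rose (0.75) while *GC1* (−1.08) and *MYB60* (−0.45) fell. Bulk RNA cannot tell fewer cells of a type from less RNA per cell. What part such shifts have in the marker levels was not tested.

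In roots the markers of *elp2-5* went both ways, with 12 of 20 tests passed. Among all root genes, 38.7% passed in GC and 36.7% in FT. *HIS1-3*, which rose in *elp2-5* leaves, was lower in *elp2-5* roots. The *elp2-5* root libraries listed above ran from 2.96 to 5.45 FPKM in GC and from 8.34 to 12.45 in FT, all below the Col-0 libraries of the same environment. The log2 fold change was −1.60 (SE 0.26, adjusted p = 7.62e-05) in GC and −1.49 (SE 0.26, adjusted p = 0.000156) in FT. *elp2-5* roots in FT, at a mean of 10.8, were thus below Col-0 roots in GC, at 15.4, although above *elp2-5* roots in GC.

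*NCED3* fell in roots too. It was at 2.71, 2.26, 3.78 and 2.4 FPKM in Col-0 GC and at 1.52, 1.11, 0.93 and 0.99 in *elp2-5* GC. In FT the values were 2.76, 2.6, 2.75 and 2.25 in Col-0 and 1.56, 1.04, 1.06 and 1.61 in *elp2-5*. The groups did not overlap, and the log2 fold changes were −1.0 (SE 0.19, adjusted p = 0.000313) and −0.78 (SE 0.19, adjusted p = 0.00277).

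*COR47*, the most abundant marker in Col-0 roots, fell by 0.61 in GC (SE 0.11, adjusted p = 0.000128) and by 1.04 in FT (SE 0.11, adjusted p = 2.6e-07) on the log2 scale. Its lowest Col-0 root library was at 303.76 FPKM and its highest *elp2-5* root library at 261.07. *KIN1* moved the opposite way and by more. It was at 16.22, 12.83, 25.64 and 30.41 in Col-0 GC and at 89.7, 126.69, 68.24 and 67.28 in *elp2-5* GC, a mean 4.14 times higher (2.05, SE 0.29, adjusted p = 1.9e-05). In FT it was at 19.14, 11.97, 26.68 and 13.28 in Col-0 and at 41.68, 72.88, 53.42 and 43.85 in *elp2-5* (1.58, SE 0.29, adjusted p = 0.000258). Summed with *KIN2* the differences were 0.90 and 0.74 and both passed.

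*RD22*, scarce in roots, was higher in every *elp2-5* root library (6.57 to 13.95 FPKM) than in the matching Col-0 group (4.73 to 7.18 in GC and 4.91 to 5.7 in FT). Its log2 fold changes were 0.88 and 0.82, with adjusted p of 0.00158 and 0.00274. *LTI30* rose in GC (0.77, SE 0.18, adjusted p = 0.00167), and in FT its difference was 0.28 (adjusted p = 0.222). *RD29A* rose in GC (0.62, SE 0.23, adjusted p = 0.0365) with overlapping groups. That call was lost without Col-0 GC replicate 1 or 2 or *elp2-5* GC replicate 1 or 3, at log2 fold changes of 0.47 to 0.61, the last being the library with the highest root seed sum. *RAB18*, *RD29B* and *COR15A* did not pass in either environment.

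Over all root genes, 18.9% rose and 19.8% fell in *elp2-5* GC, and 15.6% rose and 21.2% fell in FT. Of the 5 root marker genes 4 fell in *elp2-5* roots in each environment, and their sum ran from 3871 to 4528 FPKM in *elp2-5* GC against 5014 to 5842 in Col-0 GC. Its part in the marker results was not tested.

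**Figure D4:**
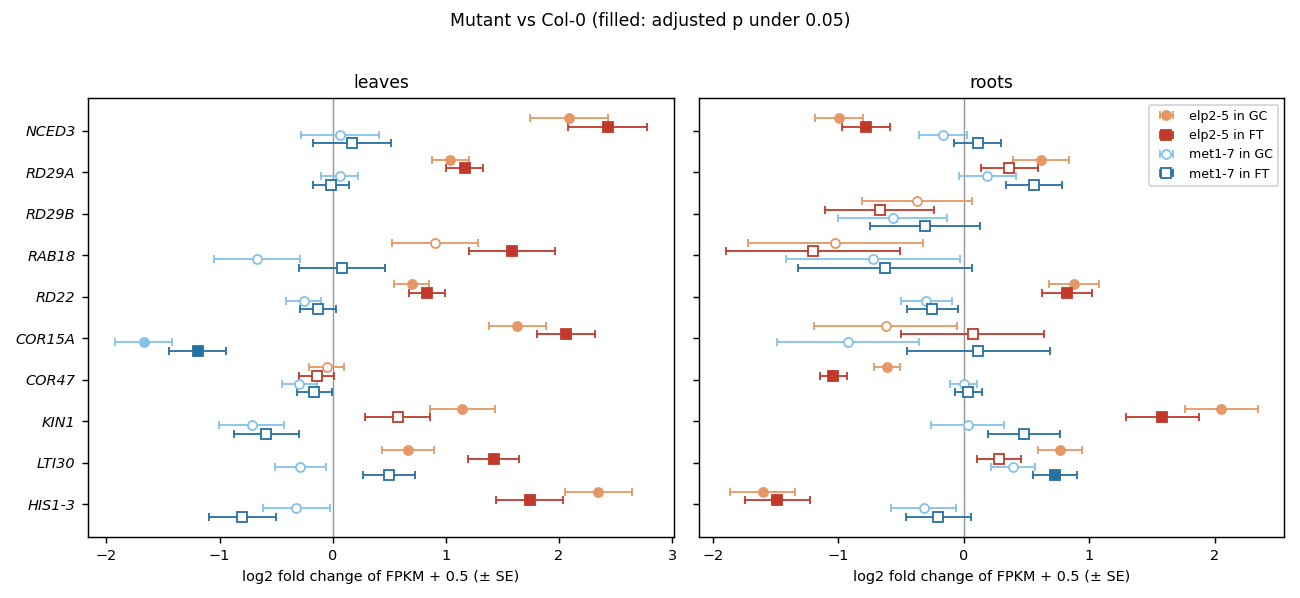
Log2 fold change of each mutant over Col-0 (horizontal axis, ± SE) of each gene, in GC and FT. Filled symbols passed at an adjusted p under 0.05. *HIS1-3* and *NCED3* of *elp2-5* lie right of 0 in leaves (1.74 to 2.43) and left of 0 in roots (−1.60 to −0.78).

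The mutant *met1-7* differed from Col-0 in few markers. In leaves 2 of 18 tests passed, where 15.6% of all leaf genes passed in GC and 7.44% in FT. Both were for *COR15A*, which fell. It was at 3.76, 2.84, 5.88 and 5.02 FPKM in *met1-7* GC and at 8.67, 2.79, 6.15 and 6.08 in *met1-7* FT. All of these were below the lowest Col-0 library, at 11.43. The log2 fold changes were −1.67 (SE 0.25, adjusted p = 0.000138) in GC and −1.19 (SE 0.25, adjusted p = 0.00578) in FT. Fitted with only the libraries compared, the FT value had an adjusted p of 0.0824. Its neighbour *COR15B* fell too, from a mean of 4.31 to 0.998 FPKM in GC (−1.73, SE 0.34, adjusted p = 0.00148) and from 3.72 to 1.45 in FT (−1.16, SE 0.34, adjusted p = 0.0387). *COR15A* therefore lay above Col-0 in *elp2-5* leaves and below it in *met1-7* leaves, in comparisons that share the Col-0 libraries.

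*KIN1* was lower in *met1-7* GC leaves than in Col-0 without overlap, with 1 library listed at 0, and did not pass (−0.71, SE 0.29, adjusted p = 0.0954). It passed with a pseudocount of 0.1 (−1.49, adjusted p = 0.0388), with quantile normalization (−0.91, adjusted p = 0.0446) and summed with *KIN2* (−0.81, adjusted p = 0.0463). *HIS1-3* in *met1-7* FT leaves was at 1.64, 3.98, 2.06 and 3.25 FPKM, below each Col-0 FT library, and did not pass (−0.80, SE 0.29, adjusted p = 0.107). Over all leaf genes, 7.4% rose and 8.17% fell in *met1-7* GC, and 3.7% rose and 3.74% fell in FT.

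In *met1-7* roots 1 of 20 tests passed. *LTI30* rose in FT, from 105.57, 146.32, 144.81 and 123.08 FPKM in Col-0 to 227.98, 271.27, 183.67 and 182.33 in *met1-7* (0.73, SE 0.18, adjusted p = 0.0162). The call was lost without Col-0 FT replicate 1 or *met1-7* FT replicate 1 or 2, at 0.61 to 0.69. In GC the difference was 0.39 (SE 0.18, adjusted p = 0.193). Over all root genes, 3.59% rose and 4.01% fell in *met1-7* GC, and 2.67% rose and 2.76% fell in FT.

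Set directly against *met1-7*, *elp2-5* differed in 16 of 18 leaf tests, in which it was higher each time, and in 10 of 20 root tests. Without *KIN1*, which entered only through *elp2-5*, 14 of 16 leaf tests passed. *COR15A* in leaves had the greatest difference of any marker on the log2(FPKM + 0.5) scale, with *elp2-5* at 38.11 to 78.18 FPKM and *met1-7* at 2.79 to 8.67. Its mean was 10.6 times higher in GC (3.31, SE 0.25, adjusted p = 3.13e-09) and 9.98 times higher in FT (3.26, SE 0.25, adjusted p = 4.74e-09). *COR47* was the marker without a leaf call, at 0.24 and 0.02. In roots the calls were falls of *NCED3*, *COR47* and *HIS1-3* and rises of *KIN1* and *RD22*, each in both environments. Of all genes, 52.3% in GC leaves, 47.8% in FT leaves, 37.9% in GC roots and 39.2% in FT roots passed in either direction. These comparisons reuse the *elp2-5* libraries above.

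The neighbouring relatives did not all move with the markers. *ERD10*, the dehydrin gene beside *COR47*, was named for its position after its values were seen. It rose in *elp2-5* leaves by 0.91 in GC (adjusted p = 0.000261) and by 1.32 in FT (adjusted p = 5.43e-06) on the log2 scale, where *COR47* had −0.05 and −0.14. In *elp2-5* roots *ERD10* had 0.21 and −0.08 without passing, where *COR47* fell. *KIN2* rose in *elp2-5* leaves, from 17.03 to 26.4 FPKM in Col-0 GC to 48.22 to 57.45 in *elp2-5* GC (1.30, SE 0.28, adjusted p = 0.000649). In roots it had 0.55 (adjusted p = 0.0717) in GC, where *KIN1* rose by 2.05. *XERO1*, beside *LTI30* and also named for its position, had a highest group mean of 2.09 FPKM in roots and fell in *elp2-5* FT against Col-0 (−1.09, adjusted p = 0.0116). The differences between neighbours were not tested. The 2 other linker histone genes, *H1.1* and *H1.2*, passed as a rise in flight in no genotype in roots. *H1.1* ran from 325.8 to 372.4 FPKM in Col-0 GC roots and from 378.3 to 398.8 in FT, without overlap, and the difference did not pass (0.13, adjusted p = 0.267). *H1.2* in *elp2-5* roots fell by 0.21 in FT (adjusted p = 0.0138). Against Col-0, both histone genes rose in *elp2-5* leaves, as the marker linker histone did. *H1.1* had 0.56 in GC (adjusted p = 2.22e-07) and 0.65 in FT (adjusted p = 3.46e-08). *H1.2* had 0.22 in GC (adjusted p = 0.000215) and 0.28 in FT (adjusted p = 1.43e-05). In *elp2-5* GC roots both also passed as rises, where the marker linker histone fell, and in FT roots neither passed.

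Of 79 other listed genes, 69 were tested in leaves and 63 in roots. They are genes of the pathways and the linker histone genes *H1.1* and *H1.2*. The calls of both histone genes given above are part of the totals. In *elp2-5* leaves 43 rose and 8 fell in GC, and 42 rose and 11 fell in FT. Among all leaf genes 37.6% rose and 14.1% fell in GC, and 35.5% rose and 14.9% fell in FT, and the counts of each group of genes stand against the same shares. After median-ratio scaling 33 rose and 9 fell in GC, and 33 rose and 12 fell in FT. The parts of the signalling chain moved in different directions. Of 9 ABA receptor genes chosen for the list, 6 fell and 1 rose in GC, and 7 fell and 1 rose in FT. Among them *PYL6* had −1.60 and −1.70 and *PYL5* had −0.84 and −0.99. The PP2C phosphatase genes, whose products hold the pathway off and which ABA itself induces, rose in 7 of 7 tested in GC and in 6 of 7 in FT. *HAI1* had 1.13 and 0.90 and *HAI2* had 0.74 and 1.03. The listed SnRK2 kinase genes rose in 3 of 3 in GC and in 2 of 3 in FT. *OST1*, the kinase of the stomatal response, had 0.69 and 0.57.

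Of 12 ABA-related transcription factor genes 11 rose in *elp2-5* GC leaves and 8 in FT, and none fell. *ATHB7*, an ABA-inducible homeodomain factor, had 1.78 and 1.60, and *MYB96* had 0.86 and 1.25. Of 10 cold and dehydration factor genes 7 rose in GC and 9 in FT, with *CBF1* at 1.49 and 2.58 and *ZAT10* at 1.19 and 2.00. *ZAT10* encodes a zinc-finger repressor of stress responses. Of 18 other target genes 10 rose in GC, and 12 rose and 2 fell in FT. *RD20*, a calcium-binding protein of lipid droplets, had 1.68 and 1.34. Of 4 genes of ABA synthesis other than *NCED3*, 1 rose and 1 fell in GC, and 2 fell in FT. Among them *ABA1*, an early step, fell by 0.38 and 0.53. Of 4 genes of ABA breakdown, 1 rose and 1 fell in GC, and 2 rose in FT. Among these *CYP707A1* rose by 0.94 and 0.85.

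In *elp2-5* roots 14 of the 63 genes rose and 18 fell in GC, and 9 rose and 23 fell in FT, where 18.9% of all root genes rose and 19.8% fell in GC and 15.6% rose and 21.2% fell in FT. The target genes other than the markers had 2 rises and 8 falls in GC and 2 rises and 11 falls in FT, and the rises included *LEA14* (0.72 and 0.66) and *P5CS1* (0.42 and 0.74), the proline synthesis gene. Of 8 cold and dehydration factor genes 1 rose and 1 fell in each environment. *DREB2A* fell by 0.81 and 1.64, and *ICE1* rose by 0.264 and 0.262. Of 10 ABA-related transcription factor genes 4 rose and 2 fell in GC, and 2 rose and 5 fell in FT. *RD26*, an ABA-inducible NAC factor, fell by 0.41 and 0.75. *ABI5*, a bZIP factor of seed ABA responses, rose by 0.77 and 0.72.

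In flight, 6 of the 69 leaf genes rose in Col-0, 0 of 69 passed in *elp2-5*, and 9 rose and 2 fell in *met1-7*, where 8.71%, 0.644% and 9.53% of all leaf genes rose. They included *NAC019* in Col-0 (1.43, SE 0.40, adjusted p = 0.0242) and *RD20* in *met1-7* (1.63, SE 0.40, adjusted p = 0.0127). In roots 3 of 63 rose in Col-0, 6 rose and 1 fell in *elp2-5*, and 2 rose in *met1-7*, where 2.09%, 3.57% and 0.852% of all root genes rose. The fall in *elp2-5* roots and 1 of the falls in *met1-7* leaves were those of *H1.2*. After median-ratio scaling the root counts were 0, 5 rising and 2 falling, and 1. *HAI1* in *elp2-5* roots rose by 1.05 (SE 0.19, adjusted p = 0.00485), and by 0.99 in *met1-7* roots (adjusted p = 0.0148). In Col-0 roots *ABF4* (0.31) and *ABF3* (0.27), bZIP factors that bind the ABRE, rose at an adjusted p of 0.0273 each. Both of these calls were lost after median-ratio scaling. In *met1-7* against Col-0, *P5CS1* was lower in both organs and environments, with −0.79 and −0.72 in leaves and −0.54 and −0.45 in roots, and *PYL2* was higher in leaves (0.62 and 0.49). Of the 18 other target genes 7 fell in *met1-7* GC leaves and 2 in FT leaves, and none rose. Among all leaf genes 8.17% fell in GC and 3.74% in FT.

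The pattern of *HIS1-3* over genotype, environment and organ was compared with that of 18666 genes tested in both organs, by Pearson correlation of 12 group means of log2(FPKM + 0.5) centred within organ. The 2 closest were *GGT4* (AT4G29210), a gamma-glutamyl transferase gene, with r = 0.983, and *KUP10* (AT1G31120), a potassium transporter gene, with r = 0.98. The mean of *GGT4* in GC leaves was 15.6 FPKM in Col-0 and 26.4 in *elp2-5*, and in GC roots it was 41 and 28.7. That of *KUP10* was 3.63 and 5.18 in leaves and 15.3 and 12.5 in roots. These means come from the same libraries, and the values are a description.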

How the data were processed

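RNA from leaves and roots was sequenced as strand-specific, paired-end poly(A) libraries. Per the study's methods, the authors trimmed reads with Trimmomatic, aligned them to TAIR10 with STAR and estimated expression with RSEM. The deposited values are FPKM with 2 decimals, in 1 table per organ, and hold no read counts, so no counting interval could be given. Columns were matched to samples by name, and 0 per-sample columns were left unused.

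Genes at 1 FPKM or more in at least 4 of 24 libraries of an organ were kept (19877 in leaves, 21000 in roots). log2(FPKM + 0.5) was fitted with limma 3.58.1 (R 4.3.3), with 6 group means per organ and trended, robust moderation. Fold changes on this scale understate changes of low genes. p-values were Benjamini-Hochberg adjusted over all genes of a contrast, with a threshold of 0.05. *RD29B* in leaves was under the filter and had two-sided exact permutation tests. The fit was tested on simulated data.

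The markers and gene lists were chosen with earlier results of these data known. All 10 markers are named. Of each other list, up to 2 genes per organ with the greatest change are named among those that passed in flight, and up to 2 among those that passed in both environments in a mutant. *KIN2*, *COR15B*, *H1.1* and *H1.2* are named as relatives, and genes outside the rule are marked as such. Alternatives were other pseudocounts, no filter, other scalings, library weights, a replicate block, separate fits and leaving out each library. The averaged flight effect was chosen after seeing the data. Transcripts were compared with BLAST 2.17.0. Protein sequences were not used here.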

Additional observations from a re-analysis of the deposited data

Results flagged for a closer look

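In 11 of 120 groups of 4 libraries, 1 library lay apart from the other 3 by Dixon's criterion, which chance alone meets in about 1 group in 20. In roots, Col-0 FT replicate 3 was the highest of its group for *RAB18* (9.43 FPKM) and *COR15A* (7.12 FPKM). The *elp2-5* GC replicate 3 was the highest for *RD29B* in roots (1.35 FPKM) and for *KIN1* in leaves (4.59 FPKM), which are separate libraries. The lowest root libraries set apart were *RD29A* in *elp2-5* FT (8.0 FPKM, replicate 3), *RAB18* in *met1-7* GC (0.63 FPKM, replicate 3), *COR47* in *met1-7* FT (332.72 FPKM, replicate 4) and *HIS1-3* in *elp2-5* GC (2.96 FPKM, replicate 4). In leaves, *RD22* was set apart at 200.56 FPKM in Col-0 GC replicate 2 and at 291.63 FPKM in *elp2-5* GC replicate 4, and *RD29B* at 0.07 FPKM in *met1-7* GC replicate 1.

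The difference between *elp2-5* and Col-0 had opposite directions in leaves and roots for 2 markers, with no overlap between the groups in either organ. On the log2 scale *NCED3* had 2.09 in leaves and −1.0 in roots in GC, and 2.43 and −0.78 in FT. *HIS1-3* had 2.35 in leaves and −1.60 in roots in GC, and 1.74 and −1.49 in FT. The difference between the organs was not tested, because the organs are in separate tables.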

How the results depend on the processing

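Of 209 tests of a marker in a contrast, 58 passed, and 51 of these passed in every other setting and every fit without a library. Of the 151 that did not pass, 140 passed in no fit, and 0 reversed. The root flight calls were the least stable: 3 passed, 0 with only the libraries compared and 0 to 5 with a library left out. In leaves, 0 flight tests passed, 1 with a pseudocount of 1, and 0 to 1 with a library left out. For *met1-7* against Col-0, 2 leaf calls became 1 with only the libraries compared and stayed at 2 with each library left out, and 1 root call became 2 with library weights and 0 to 2 with a library left out. For *elp2-5* against Col-0, leaving out a library gave 13 to 16 calls in leaves and 11 to 13 in roots, and against *met1-7* it gave 16 in leaves and 10 to 12 in roots. No interaction passed in any fit (0 to 0). The cause of these changes was not tested.

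Libraries of the same replicate number were not treated as pairs, because no contrast had every same-number correlation over 0.1. With 4 libraries per group, this does not show that pairing was absent. The check was made within each organ and not between leaves and roots. With the replicate block, 2 of the 3 flight calls in roots were lost (*HIS1-3* in Col-0, adjusted p = 0.0606, and in *met1-7*, adjusted p = 0.0644) and *COR47* in *elp2-5* was gained (adjusted p = 0.0455), which left 2. *RD29A* in *elp2-5* GC roots was lost too (adjusted p = 0.0542), so 11 of 12 *elp2-5* root calls passed; all adjusted p are from limma. The block left the counts of leaf calls at 0, 14, 2 and 16, and those of *met1-7* and of *elp2-5* against *met1-7* in roots at 1 and 10.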
